A study of Mus musculus with 8 samples.

Results

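Described here are 10 type II cadherins in the mouse neocortex, namely Cdh6, Cdh7, Cdh8, Cdh9, Cdh10, Cdh11, Cdh12, Cdh18, Cdh20 and Cdh22, which are 10 of the 19938 genes tested. The family was taken up because Cdh8 was among the genes past the threshold in the comparison of Bcl6 mutant with control pups, so the difference of Cdh8 is the value that chose the list and is given as a description. The other 9 were listed as members of its family, and for each the probe set that named only that gene was used. Cdh18 alone had more than 1 such probe set, with means of 5.80 and 5.58 over the 8 arrays, and the brighter was kept. Total RNA came from neocortical layers II-IV, cut out by laser from pups at postnatal day 5, and each pup's RNA was read on its own Affymetrix Mouse Gene 1.0 ST array. Per the series title, the study concerned how a pathway of Bcl11a and Bcl6 controls cell death among cortical projection neurons in development. The 4 mutant pups were Bcl6 flox/flox;Nex Cre/+ and the 4 control pups Bcl6 flox/flox;Nex +/+, so that both groups carried the floxed Bcl6 alleles and the mutants alone carried Cre. Nex is another name of Neurod6, and Cre placed there is made in postmitotic excitatory neurons of the cortex, so the Bcl6 alleles of other cells in the captured tissue are not its targets. Mutants also have 1 Neurod6 allele replaced by Cre.

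Classical cadherins are single-pass membrane proteins with a row of extracellular cadherin repeats, which bind cadherins of the facing cell in the presence of calcium, and a short tail that holds p120-catenin and beta-catenin. Type II members exchange a strand with a pair of tryptophans at the tip of the first repeat, where type I members such as N-cadherin use a single one. They bind their own kind and also selected relatives, which places Cdh8 with Cdh11, Cdh6 with Cdh9 and Cdh10, and Cdh7 with Cdh12, Cdh18, Cdh20 and Cdh22. In the developing brain they are made in combinations that differ between areas, layers and neuron classes, and several of them direct which neurons form synapses with each other.

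The targeted gene was read first. Bcl6, a zinc-finger repressor of transcription, read 6.61, 6.76, 6.96 and 6.78 (log2) in mutant replicates 1 to 4, against 6.55, 6.58, 6.25 and 6.23 in control replicates 1 to 4. It is not stated which exons were floxed or where the Bcl6 probes lie. The value is therefore no check of the deletion or of the labels, and every direction below rests on the labels. Neurod6 averaged 8.83 ± 0.17 in mutants and 9.22 ± 0.13 in controls (SD, n = 4 each). Array medians ran from 4.94 to 5.01, and pairwise correlations of the 8 arrays from 0.990 to 0.994. The 11 markers tested of upper-layer excitatory neurons averaged 8.89 to 9.01 on the mutant arrays and 8.81 to 9.13 on the control arrays. Layer V markers averaged 6.36 to 6.48 on mutant and 6.26 to 6.39 on control arrays, and those of layer VI and subplate 5.81 to 5.91 on mutant and 5.79 to 6.10 on control arrays. None of the 10 marker lists held a gene past the threshold, and astrocyte, oligodendrocyte, microglial, endothelial and mural lists overlapped between the groups on these averages. Of single markers, the groups were apart in 1 of the 10 astrocyte markers, Gfap (-0.11 ± 0.06, SE). They were also apart in 1 of the 9 oligodendrocyte markers, Cnp (0.23 ± 0.07), where 2.75% of all genes were.

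Among the 10 cadherins, Cdh8 stood lower in the mutants, Cdh12 read higher in most of them, and the remaining 8 differed by between -0.20 and 0.03 on the log2 scale. Past the threshold (limma, adjusted p of 0.05 over all genes) were 1 of the 10 lower and 0 higher, against 0.015% and 0.0502% of all genes tested. The 1 lower gene is Cdh8, for which the list was chosen, so nothing is read from that count. Of the 9 others, 0 passed in either direction, with adjusted p of 0.893 or more, and 1 had an unadjusted p under 0.05 in limma, where 4.91% of all genes had one. The median difference of these 9 was -0.041, with 2 positive and 7 negative, while the median over all genes was -0.0096.

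**Figure D1:**
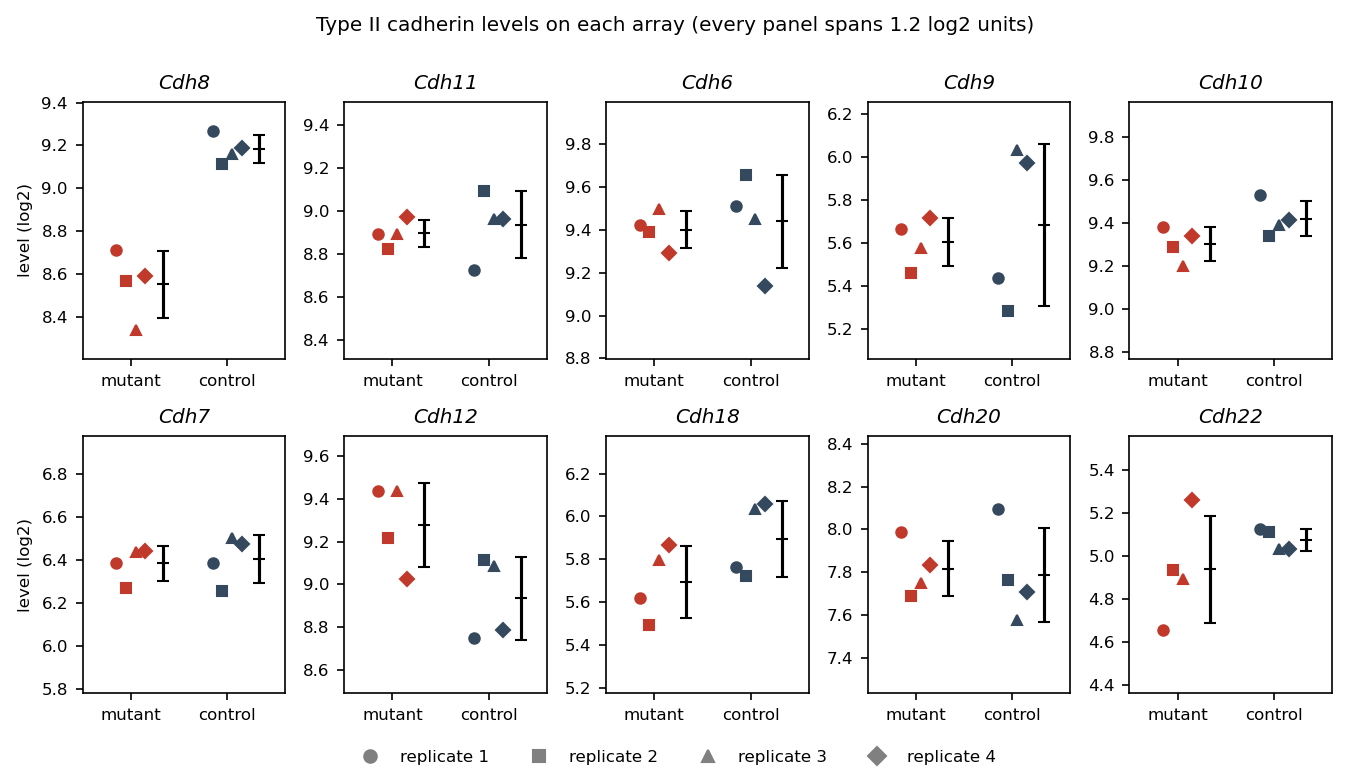
Deposited log2 level (y axis, each panel spanning the same range) of each of the 10 type II cadherins on the 4 mutant arrays (left, red) and the 4 control arrays (right, dark blue), with symbols for the replicate numbers and black bars for each group's mean ± SD. The groups are apart in Cdh8 alone, at 8.34 to 8.71 in mutants and 9.11 to 9.27 in controls, and overlap in the other 9 panels.

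Cdh8 is a cadherin of cortical projection neurons, which is made in patterned fashion across areas and layers and which acts at synapses of the cortex with the striatum. It read 8.71, 8.57, 8.34 and 8.59 in mutant replicates 1 to 4, against 9.27, 9.11, 9.16 and 9.19 in control replicates 1 to 4. All 4 mutant values lay below the lowest control value, mutant replicate 3 lying lowest, and the mutants spread more widely (SD 0.15, n = 4) than the controls (SD 0.065, n = 4). The difference was -0.63 ± 0.08 (SE, 95% interval -0.81 to -0.45), so that the mutants held 0.647 times the control signal. In bulk tissue, fewer cells that make Cdh8 and less Cdh8 RNA per cell cannot be told apart. A single probe set names Cdh8, so no second one could be set beside it.

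The Cdh8 difference lay at -0.56 to -0.73 over the 22 alternative fits, and its place past the threshold varied. All mutant values lay below all control values, so no fit that only left out arrays could turn its sign. Fits that left out dim genes, changed the variance prior or added a replicate block left the difference itself at -0.63. Leaving out mutant replicate 2, mutant replicate 4, control replicate 1, control replicate 3 or control replicate 4 gave limma adjusted p of 0.0630, 0.0612, 0.0945, 0.0704 and 0.0658. Leaving out mutant replicate 1, mutant replicate 3 or control replicate 2 left it past the threshold. Mutant replicates 1 and 4 read 9.78 and 9.76 for the X-inactivation RNA Xist, against 2.64 to 3.41 on the other 6 arrays. High Xist was thus seen among mutants only, so sex was not balanced between the genotypes. Without both arrays the Cdh8 difference was -0.73 with a limma adjusted p of 0.0548. With the Y-linked level as a covariate over all 8 arrays it was -0.72 with an adjusted p of 0.0308.

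Cdh11, which shares its adhesive preference with Cdh8, is the cadherin first described in osteoblasts and is also made in neurons and mesenchymal cells. It read 8.89, 8.83, 8.90 and 8.98 in mutant replicates 1 to 4, against 8.73, 9.10, 8.97 and 8.97 in control replicates 1 to 4. The mutant values lay inside the range of the controls, which was set by control replicates 1 and 2. The difference was -0.04 ± 0.08 (SE, n = 4 per group; limma adjusted p = 1.00), with a 95% interval of -0.22 to 0.13. A rise in Cdh11 of the size by which Cdh8 was lower lies outside that interval, as does a fall of that size. Cdh8 and Cdh11 follow each other on chromosome 8 with 0 protein-coding genes between them in the gene order of GRCm38.p6. On its other side Cdh8 is flanked by Got2, a mitochondrial aminotransferase gene, which differed by -0.02 ± 0.06 (SE), and beyond Cdh11 lies Cdh5, the endothelial cadherin, at 0.02 ± 0.06.

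Cdh6, Cdh9 and Cdh10 form the next group. Cdh6, which marks early areas of the cortex and directs the wiring of motion-sensing cells in the retina, read 9.42, 9.39, 9.50 and 9.29 in mutant replicates 1 to 4, against 9.51, 9.65, 9.45 and 9.14 in control replicates 1 to 4. Replicate 4 was lowest in both groups. The same arrays were lowest for the layer IV factor Rorb, at 9.81 in mutant replicate 4 and 9.35 in control replicate 4 against 10.32 to 10.50 on the other 6 arrays. On those arrays the mean of the 9 layer IV markers tested was lowest of its group, at 6.86 and 6.75. It ran from 6.86 to 7.03 over the mutants and from 6.75 to 7.09 over the controls. That mean takes in Rorb itself, so it says nothing separate about the other layer IV markers. The part of these markers in the Cdh6 values was not tested, and the replicate numbers are not said to pair pups. The Cdh6 difference was -0.04 ± 0.10 (SE, 95% interval -0.25 to 0.18), and -0.10 ± 0.08 without those 2 arrays.

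Cdh9, which acts at the synapse between mossy fibres and their targets in the hippocampus, read 5.67, 5.46, 5.57 and 5.71 in mutant replicates 1 to 4, against 5.44, 5.28, 6.03 and 5.97 in control replicates 1 to 4. The controls split widely, with replicates 1 and 2 below and replicates 3 and 4 above all 4 mutants (SD 0.11 in mutants and 0.38 in controls, n = 4 each). Its interval was therefore the widest of the 10, at -0.40 to 0.24 around a difference of -0.08 ± 0.15 (SE).

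Cdh10, a cadherin of cortical neurons, read 9.38, 9.29, 9.20 and 9.34 in mutant replicates 1 to 4, against 9.53, 9.34, 9.39 and 9.42 in control replicates 1 to 4. Of the mutants, 3 lay below the lowest control and replicate 1 lay among the controls. The difference was -0.12 ± 0.07 (SE, n = 4 per group; limma adjusted p = 1.00), with a 95% interval of -0.27 to 0.03. The arrays of each genotype stood in the same order for Cdh10 as for Cdh8, in the mutants replicate 1 highest, then 4, 2 and 3, and in the controls replicate 1 highest, then 4, 3 and 2. This match was noticed after the values were seen. It held for 1 of the 9 other members and for 32 of the 19937 other genes (0.161%), and the values of an array share 1 tissue sample, so it is a description of these 8 pups. Deviations from the genotype means correlated at r = 0.908 for Cdh8 and Cdh10. For Cdh7 and Cdh18 they correlated at 0.913, so such tracking was not particular to Cdh8 and Cdh10.

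**Figure D2:**
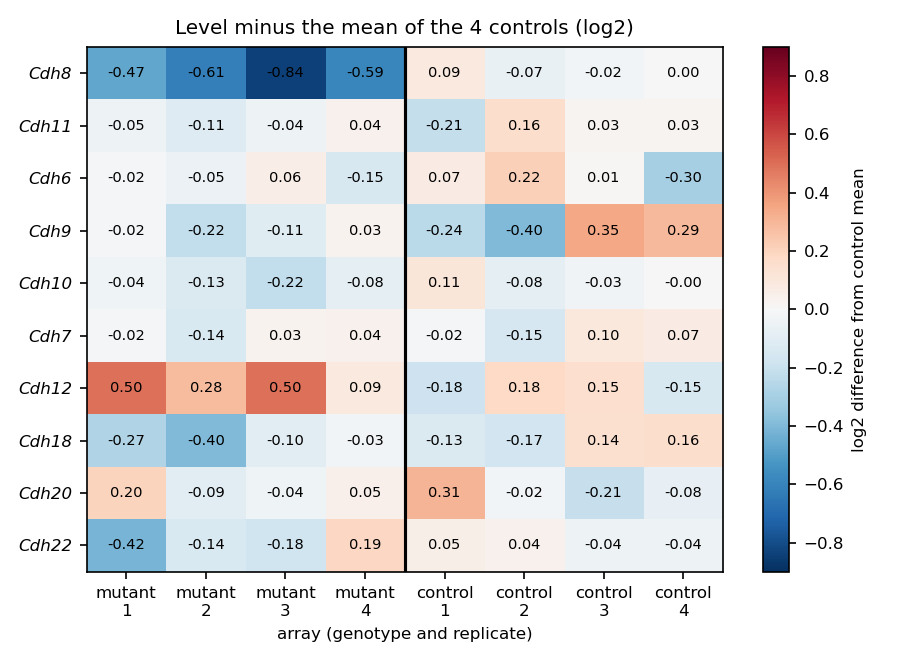
Level of each of the 10 type II cadherins (rows) on each array (columns, mutants left of controls) minus the mean of the 4 controls, in log2 units, printed in each cell and coloured from blue (lower) to red (higher). The Cdh8 row is blue on all 4 mutant arrays, from -0.47 to -0.84, the Cdh12 row is red on the same arrays, from 0.09 to 0.50, and the Cdh9 row differs most among the controls.

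Cdh7, Cdh12, Cdh18, Cdh20 and Cdh22 make up the last group. Cdh12, also called brain cadherin, read 9.43, 9.22, 9.43 and 9.03 in mutant replicates 1 to 4, against 8.75, 9.12, 9.09 and 8.79 in control replicates 1 to 4. Of the mutants, 3 lay above all controls and mutant replicate 4 lay above 2 of the 4, so that the groups overlapped. The difference was 0.34 ± 0.11 (SE, 95% interval 0.10 to 0.58), or 1.27-fold. It did not pass the threshold (limma adjusted p = 0.893 over all genes, unadjusted 0.00928). Over the 22 alternative fits it lay at 0.28 to 0.43, and the adjusted p was never under 0.666. Those that left out dim genes, changed the variance prior or added a replicate block kept the difference at 0.34, so they could not turn its sign.

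Cdh18, a brain cadherin that follows Cdh12 on chromosome 15, read 5.62, 5.50, 5.80 and 5.87 in mutant replicates 1 to 4, against 5.76, 5.72, 6.04 and 6.06 in control replicates 1 to 4. Of the mutants, 2 lay below all controls. The difference was -0.20 ± 0.10 (SE, n = 4 per group; limma adjusted p = 1.00), and its second probe set read -0.21 ± 0.10. Cdh18 had the most negative difference after Cdh8, with a 95% interval of -0.42 to 0.02.

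Cdh22 is the cadherin first found in rat pituitary and brain. It read 4.66, 4.94, 4.89 and 5.26 in mutant replicates 1 to 4, against 5.13, 5.11, 5.03 and 5.03 in control replicates 1 to 4. Mutant replicates 1 and 4 lay on either side of the controls, which were close together (SD 0.25 in mutants and 0.051 in controls, n = 4 each), and the difference was -0.14 ± 0.11 (SE). Over the fits that left out 1 array it lay between -0.25 and -0.04. Cdh7 read 6.27 to 6.44 in mutants and 6.26 to 6.50 in controls, a difference of -0.02 ± 0.07 (SE). Cdh20, which lies on chromosome 1 as Cdh7 does, read 7.69 to 7.99 in mutants and 7.58 to 8.09 in controls, a difference of 0.03 ± 0.11 (SE). For Cdh7 and Cdh20 all 4 mutant values lay within the range of the controls, and the sign of both differences changed under some alternatives. Cdh9, Cdh18 and Cdh22 read near the median level of all genes, 5.55, and the table holds no detection calls.

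**Figure D3:**
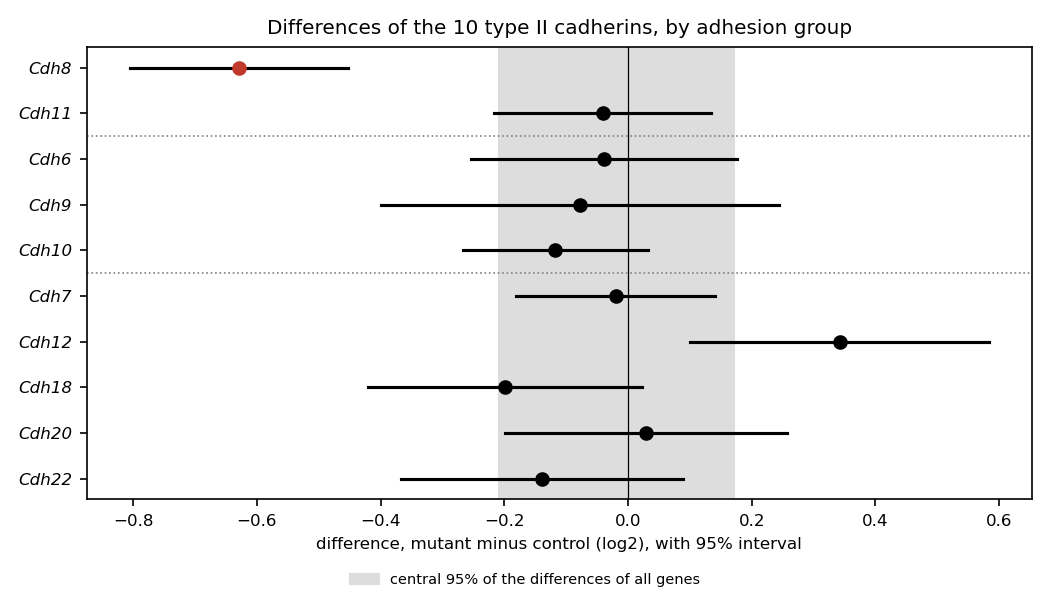
Difference of mutant minus control (x axis, log2) with its 95% interval for the 10 type II cadherins (y axis, dotted lines between adhesion groups), Cdh8 in red, and a grey band for the central 95% of the differences of all 19938 genes, -0.208 to 0.171. Cdh8 at -0.63 and Cdh12 at 0.34 lie outside the band and the other 8 inside it, and the intervals of the 9 others span -0.42 to 0.58 in all.

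By adhesion group, the differences of the 3 members with Cdh6 were all negative and between -0.12 and -0.04. Those of the 5 members with Cdh7 ran from -0.20 to 0.34 and had a median of -0.02. Neither group held a gene past the threshold in limma, where 0.0652% of all genes passed in either direction. Mutant and control values did not overlap in Cdh8, whose difference chose the list, so nothing is read from that. They were apart in 0 of the 9 other members, against 2.75% of all genes. Of the members, 5 lie in 1 stretch of chromosome 15 in the order Cdh6, Cdh9, Cdh10, Cdh12 and Cdh18, with 0 protein-coding genes between each of the first 4 and 1 between Cdh12 and Cdh18. Along that stretch the differences were -0.04, -0.08, -0.12, 0.34 and -0.20, so the positive value of Cdh12 stood between 2 negative neighbours. The gene between Cdh12 and Cdh18, Acot10, a thioesterase gene, differed by 0.05 ± 0.11 (SE).

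Promoter sequences are shown for the member that was lower in mutants, for the member whose arrays followed its order and for the member that read highest against its controls. They are the 250 bases before the annotated start in RefSeq on GRCm38.p6, 5′ to 3′ on the strand of the gene, at chr8:99416472-99416721 (minus strand) for Cdh8, chr15:18820079-18820328 (plus strand) for Cdh10 and chr15:21111202-21111451 (plus strand) for Cdh12. Capitals mark matches on either strand to TTCNNNGAA, the palindrome shared by BCL6 and STAT sites, or to the GC box, whose letters searched were GGGCGG. The TATA box, searched as TATAAA, would also be in capitals.
Cdh8: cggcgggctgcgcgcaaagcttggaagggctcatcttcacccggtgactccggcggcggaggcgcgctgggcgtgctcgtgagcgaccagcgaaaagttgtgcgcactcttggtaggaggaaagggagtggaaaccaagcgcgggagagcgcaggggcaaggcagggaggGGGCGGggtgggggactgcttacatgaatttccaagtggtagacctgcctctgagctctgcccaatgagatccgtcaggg
Cdh10: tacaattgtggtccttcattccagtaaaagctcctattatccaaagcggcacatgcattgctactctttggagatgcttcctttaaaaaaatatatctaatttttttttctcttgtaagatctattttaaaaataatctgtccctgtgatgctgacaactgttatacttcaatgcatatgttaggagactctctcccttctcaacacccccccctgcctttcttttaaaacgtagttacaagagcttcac
Cdh12: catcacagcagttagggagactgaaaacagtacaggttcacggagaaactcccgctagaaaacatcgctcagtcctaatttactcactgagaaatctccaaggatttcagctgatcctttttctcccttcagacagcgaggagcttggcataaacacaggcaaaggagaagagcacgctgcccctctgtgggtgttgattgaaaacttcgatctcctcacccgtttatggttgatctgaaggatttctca
The table held windows for 9 of the 10 members, 11 windows in all, and none for Cdh11. The Cdh8 window has 1 GC box, and those of Cdh10 and Cdh12 have no match to any of the 3. Over all 32851 windows of the same length, 32.7% hold the GC box, 12.4% the TATA box and 7.02% the palindrome. Matches of different motifs overlapped in none of the 3 windows shown. None of the 11 member windows holds the palindrome or the TATA box, which says only that these letters are not in these bases. The Cdh8 window was 64.4% G or C, that of Cdh10 36.8% and that of Cdh12 46.8%, against a median of 52.4% over all windows.

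The genes most like Cdh8 over the 8 arrays were looked for next, by the smallest root mean square gap between deviations from each gene's own mean. Among 17167 genes compared, these were Cabp4, a calcium-binding protein known from photoreceptors, with a gap of 0.111, Wdr66, a protein of motile cilia, with 0.150, and Lefty2, an inhibitor of Nodal signalling, with 0.152. Closest to the mirror image of Cdh8 were the testican Spock1 with a gap of 0.0974, the metallophosphoesterase Mpped2 with 0.123 and the membrane glycoprotein Tpbg with 0.124. The gap takes in the mutant-control difference, and Cdh8 was chosen by that contrast, so these 6 carry no further support.

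**Figure D4:**
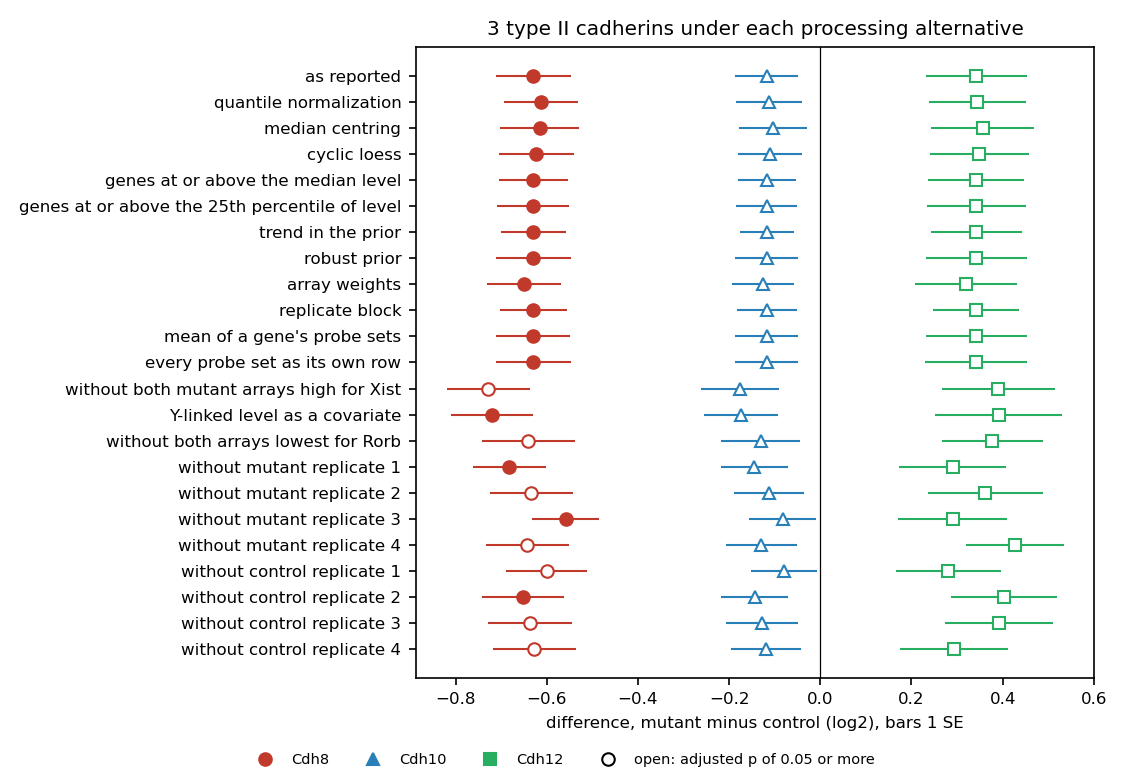
Difference of mutant minus control (x axis, log2, bars 1 SE) for Cdh8 (red circles), Cdh10 (blue triangles) and Cdh12 (green squares) as reported and under each of 22 alternatives (y axis), filled where the limma adjusted p was under 0.05. Cdh8 stays between -0.56 and -0.73 with filled symbols in 15 of the 22 alternatives, while Cdh12 stays between 0.28 and 0.43 and Cdh10 between -0.18 and -0.08 with open symbols throughout.

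The genes that work beside these cadherins were read in 6 lists, of which 60 of 64 genes were tested. None of the 60 passed the threshold in limma in either direction, 4 had an unadjusted p under 0.05, and the groups did not overlap in 3, against 4.91% and 2.75% of all genes. Of the 15 catenins and cytoplasmic partners tested, 12 differences were positive and 3 negative, with a median of 0.040. Beta-catenin, Ctnnb1, which links the cadherin tail to alpha-catenin, read 9.96 ± 0.05 in mutants and 9.92 ± 0.01 in controls (SD, n = 4 each). The difference in p120-catenin, Ctnnd1, which keeps cadherins at the membrane, was 0.06 ± 0.07 (SE). The members of smallest p were Pkp4, a p120-related junction protein, at 0.19 ± 0.08 (SE; limma adjusted p = 0.988), and Jup, plakoglobin, at 0.14 ± 0.08. The 4 Pkp4 values of the mutants, 8.45 to 8.58, lay above the 4 of the controls, 8.13 to 8.45.

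The 5 type I cadherins had a median of -0.02 and none past the threshold in limma. The smallest p among them belonged to Cdh4, retinal cadherin, at 0.15 ± 0.08 (SE), and to Cdh3, placental cadherin, at -0.08 ± 0.11. N-cadherin, Cdh2, the main type I cadherin of neurons, read 9.87 ± 0.04 in mutants and 9.90 ± 0.09 in controls (SD, n = 4 each). Of the 3 type II cadherins outside the list, Cdh19 differed by -0.22 ± 0.08 (SE; limma adjusted p = 0.907) at a level of 1.77 in mutants and 1.99 in controls, near the floor of the table, and Cdh24, which shares its preference with Cdh8, by -0.06 ± 0.07.

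Among 18 other surface proteins of the cadherin superfamily the median was 0.029, with 10 positive and 8 negative differences. Clstn2, calsyntenin-2, a synaptic cadherin-related protein, was 9.72 ± 0.11 in mutants and 9.36 ± 0.18 in controls (SD, n = 4 each). Its groups did not overlap and its difference was 0.36 ± 0.09 (SE; limma adjusted p = 0.655). Fat1, a giant cadherin, differed by 0.23 ± 0.10. The 10 genes of cadherin shedding and turnover had a median of -0.0048, with Ptpn1 (0.09 ± 0.07) and Ncstn (-0.09 ± 0.07) at the smallest p. The 9 nectins and related adhesion genes had a median of 0.026, with Cadm1 (-0.16 ± 0.07) and Nectin4 (0.11 ± 0.07) at the smallest p.

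**Figure D5:**
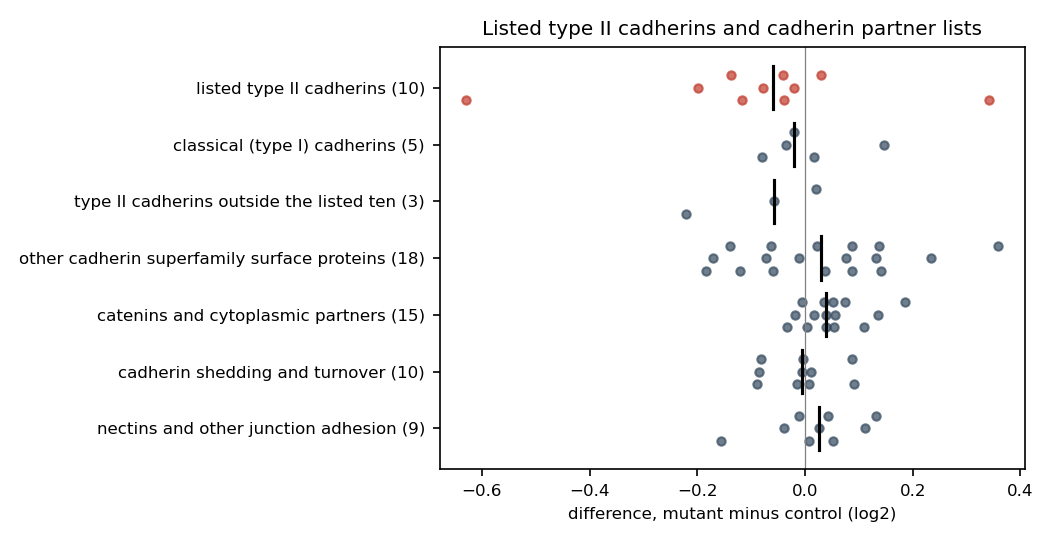
Difference of mutant minus control (x axis, log2) for every tested gene of the listed type II cadherins (red) and of 6 lists of related and partner genes (dark blue), each point a gene and each black tick the median, with the number tested in parentheses (y axis). Cdh8 at -0.63 is the leftmost point and Clstn2 at 0.36 the rightmost, and list medians lie between -0.060 and 0.040.

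Layer markers were set beside the Cdh8 values. Of the 9 layer IV markers tested, 0 passed the threshold in limma and the median difference was -0.047, with Zbtb16, a zinc-finger factor, at 6.76 to 6.95 in mutants and 7.05 to 7.11 in controls. Of the 9 layer V markers, 0 passed and the median was 0.084, with the cofactor Ldb2 at 8.07 to 8.64 in mutants and 7.29 to 8.03 in controls and the potassium channel subunit Kcng1 at 6.37 to 6.45 in mutants and 6.54 to 6.67 in controls. The ranges of the genotypes were separate in 1 of the 9 layer IV markers, Zbtb16, in a list with 3 positive and 6 negative differences. They were separate in 2 of the 9 layer V markers, Ldb2 (0.80 ± 0.15, SE) and Kcng1 (-0.22 ± 0.06), which lay on opposite sides. So were those of 1 of the 9 layer VI and subplate markers, Tbr1 (0.17 ± 0.07). Of the 11 upper-layer markers, 1 was separate, Neurod6 (-0.39 ± 0.09), the locus that holds Cre. Among all genes the share was 2.75%. The Rorb ranges overlapped, at 9.81 to 10.50 in mutants and 9.35 to 10.50 in controls. The part of these markers in the Cdh8 difference was not tested. Without the 2 arrays lowest for Rorb, a fit added after the data were seen, the Cdh8 difference was -0.64 ± 0.10 (SE) with a limma adjusted p of 0.162.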

How the data were processed

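The deposited table gives a log2 value for each of 35556 probe sets on 8 arrays, made by the authors with BRB-ArrayTools per the labels. How they corrected background, normalized arrays and summarized probes is not stated here, and log2 was read from the range of the values, 0.74 to 13.63. The number of arrays limits the precision.

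Probe sets were named from the platform's annotation, with symbols updated through the Entrez identifier to GRCm38.p6 (21698 of 21789 matched). Probe sets naming 1 gene were kept, the brightest per gene, which left 19938 genes. The 3 probe sets that name Cdh11 with other genes were left out. The comparison used limma 3.58.1 under R 4.3.3 (lmFit and eBayes with genotype as the only term, two-sided, Benjamini-Hochberg over all genes, threshold 0.05), tested on simulated data. SE is the moderated standard error.

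The members and lists were chosen with earlier results of these data known. Named genes were Bcl6, Neurod6, all 10 members, the 2 of smallest p in each partner list, and the 3 most like and unlike Cdh8 (predicted genes, receptors of smell and small RNAs left out). Ctnnb1, Ctnnd1, Cdh2, Cdh5, Got2, Acot10, Xist, Rorb, Zbtb16, Ldb2, Kcng1, Tbr1, Gfap and Cnp were added for context after their values were seen. Alternatives were normalization, dim-gene filters, variance priors, array weights, a replicate block, other uses of probe sets, sex and leaving out arrays. Same-numbered mutant and control arrays correlated in their deviations at -0.012 to 0.159, and differently numbered ones at -0.1 to 0.071. The value of 0.159 came from replicate 4, and these correlations do not decide whether the numbers pair pups. The labels do not say so, and the numbers were not taken as pairs outside the replicate block.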

Additional observations from a re-analysis of the deposited data

How the results depend on the processing

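Of the 10 type II cadherins, 1 was called lower as reported (Cdh8) and 0 without both mutant arrays high for Xist or without both arrays lowest for Rorb. Leaving out 1 array at a time gave 0 to 1 called lower. Fewer samples enter these fits. The count called higher was 0 in limma in every fit, and 0 partner genes were called in either direction. The median of the 10 was -0.060 as reported, -0.119 without both arrays high for Xist, -0.120 with the Y-linked level as a covariate, and -0.098 to -0.032 over the fits that left out 1 array. With the replicate block 1 was called lower, and Cdh8 read -0.63 with an adjusted p of 0.0353. The block changed no call of a member. With it Cdh18 read -0.20 ± 0.06 (SE), with an adjusted p of 0.797 in limma (unadjusted 0.0123, against 0.0734 as reported). The genes called over the whole table numbered 10 higher and 3 lower as reported, and 4 and 1 with the block. Cdh10, Cdh12, Cdh18 and Cdh22 kept their sign in every fit that held them. Dim-gene filters, variance priors and the block leave each difference unchanged, so these fits could not turn a sign. The sign changed for Cdh20 in 5 of 22 alternatives, for Cdh6 and Cdh7 in 3 each, for Cdh9 in 2 and for Cdh11 in 1, none of them past the threshold. Cdh22 was not tested where genes under the median level were left out.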
